A study of Mus musculus with 6 samples.

Results

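The growth hormone and insulin-like growth factor (IGF) axis was followed through 10 genes that the arrays measured with 14 probes, out of 18069 genes that had a probe with exactly 1 symbol in the platform annotation and 36227 probes in all. The genes were Ghrh, Ghr, Igf1, Igf2, Igf1r, Igf2r, Igfbp3, Igfbp4, Igfbp5 and Igfbp7. The group was chosen by the difference of Ghrh between UCP1 and control arrays, the widest fall among bright probes, so the values of Ghrh are given as a description with no test. The other 9 genes entered by name, in a list drawn up with earlier results of these data known. Ghr, Igf1r, Igfbp4 and Igfbp5 had 2 probes each, and 2 further probes that carried a member's symbol together with another gene's were left out. Every member probe had a value above 0 on all arrays and was tested or described.

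The arrays held biotin-labelled total RNA of 3T3-L1, mouse preadipocytes in culture that store lipid and take on adipocyte features in an adipogenic mixture. The 3 UCP1 arrays were of adipocytes expressing uncoupling protein 1, a carrier of the inner mitochondrial membrane that lets protons back into the matrix without ATP synthesis, and the 3 Tet-off control arrays were of adipocytes with only the Tet-off plasmid. Both groups were taken 10 days after differentiation. The labels leave unsaid whether a line was a single clone, what drove the UCP1 gene and whether replicate arrays stand for separate cultures. The p-values therefore reflect array-to-array spread that may be purely technical.

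Growth hormone from the pituitary acts on the growth hormone receptor of fat and liver cells, where it signals through the kinase Jak2 and the transcription factor Stat5. One of its best known effects is to raise the production of IGF1. IGF1 and IGF2 act on the IGF1 receptor, the IGF2 receptor takes up IGF2 for breakdown in lysosomes, and secreted binding proteins hold both factors and are cut by proteases such as pappalysin. Ghrh encodes the hypothalamic peptide that prompts the pituitary to release growth hormone, and it is also expressed in some tissues outside the brain, such as placenta.

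Intensities were on a linear scale with an array median of 1.04 to 1.05, so a value says how bright a probe was relative to the middle probe of its array. Bright probes reached less far in UCP1, with a 99th percentile of 225, 223 and 185 on its arrays against 279, 255 and 258 on the control arrays. The probe for Ucp1 read 2.34, 2.02 and 1.54 on UCP1 arrays 1, 2 and 3, against 0.222, 0.232 and 0.278 on control arrays 1, 2 and 3. Of 6 measured adipocyte markers, Fabp4, Adipoq, Lpl, Pparg and Cidec lay above at least 96.9% of the probes on every array, and Lipe was dim. None of the markers measured for pituitary, macrophage or endothelial cells reached the median level, and 2 of 6 neuron markers, Snap25 and Th, did. Over all probes, 1021 of 36116 passed an adjusted p of 0.05 (limma with Benjamini-Hochberg adjustment), which is 2.83%, with 0.800% higher and 2.03% lower in UCP1. That split of 289 higher and 732 lower calls became 567 and 446 after quantile normalization.

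Ghrh was far lower in UCP1 adipocytes. Its probe (feature 250080) read 4.25, 2.61 and 3.12 on UCP1 arrays 1, 2 and 3, against 39.9, 30.7 and 46.4 on control arrays 1, 2 and 3. The groups did not overlap, and the lowest control reading was 7.22 times the highest UCP1 reading. The means were 3.33 ± 0.840 in UCP1 and 39.0 ± 7.87 in controls (SD, n = 3 each), a difference of -3.56 on the log2 scale or 11.8-fold. In UCP1 the probe still outshone 66.1% to 71.9% of all probes, so the fall did not end at the dim end of the scale, and in controls it outshone 90.7% to 92.9%. Among the 18058 probes whose mean level was at or above the median probe it ranked 1 by size of fall, while 32 dimmer probes had larger differences. In bulk samples fewer cells expressing a gene and less RNA per cell cannot be told apart.

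Ghrh has 2 start sites in the RefSeq promoter table (GRCm38.p6), both on the minus strand, and the array does not say which of them the RNA came from. The windows, 250 bases before to 50 bases after each start, are shown because Ghrh carries the widest difference of the axis. The upstream window is chr2:157346606-157346905 and the downstream window chr2:157337377-157337676, with a TATA box in capitals.
Ghrh upstream start: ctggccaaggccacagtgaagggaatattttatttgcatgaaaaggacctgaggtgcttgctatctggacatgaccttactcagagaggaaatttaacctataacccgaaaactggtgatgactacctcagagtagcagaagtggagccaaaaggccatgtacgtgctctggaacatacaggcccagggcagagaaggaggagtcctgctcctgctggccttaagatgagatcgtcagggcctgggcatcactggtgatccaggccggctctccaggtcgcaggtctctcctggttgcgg
Ghrh downstream start: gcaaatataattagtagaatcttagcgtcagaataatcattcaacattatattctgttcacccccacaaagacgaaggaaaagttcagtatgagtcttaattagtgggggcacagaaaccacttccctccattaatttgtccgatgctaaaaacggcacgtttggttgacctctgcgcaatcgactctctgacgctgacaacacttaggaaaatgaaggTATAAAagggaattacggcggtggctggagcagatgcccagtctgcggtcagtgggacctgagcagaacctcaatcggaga
The letters TATAAA were found once, at position -31 of the downstream window, and not in the upstream one, and 13.6% of all 32851 promoter windows hold them on either strand. Windows were also searched on both strands for the cyclic AMP response element TGACGTCA (1.79% of all windows), the Stat5 motif TTCNNNGAA (8.30%), the E-box CACGTG (7.15%) and the Sp1 box GGGCGG (35.7%). Neither Ghrh window held any of these. Over the 15 windows of the 10 members, TGACGTCA and TTCNNNGAA were found in 0, the TATA letters in 3, the Sp1 box in 6 and the E-box in 1. The E-box letters read the same on both strands. A match or its lack describes these windows alone.

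**Figure D1:**
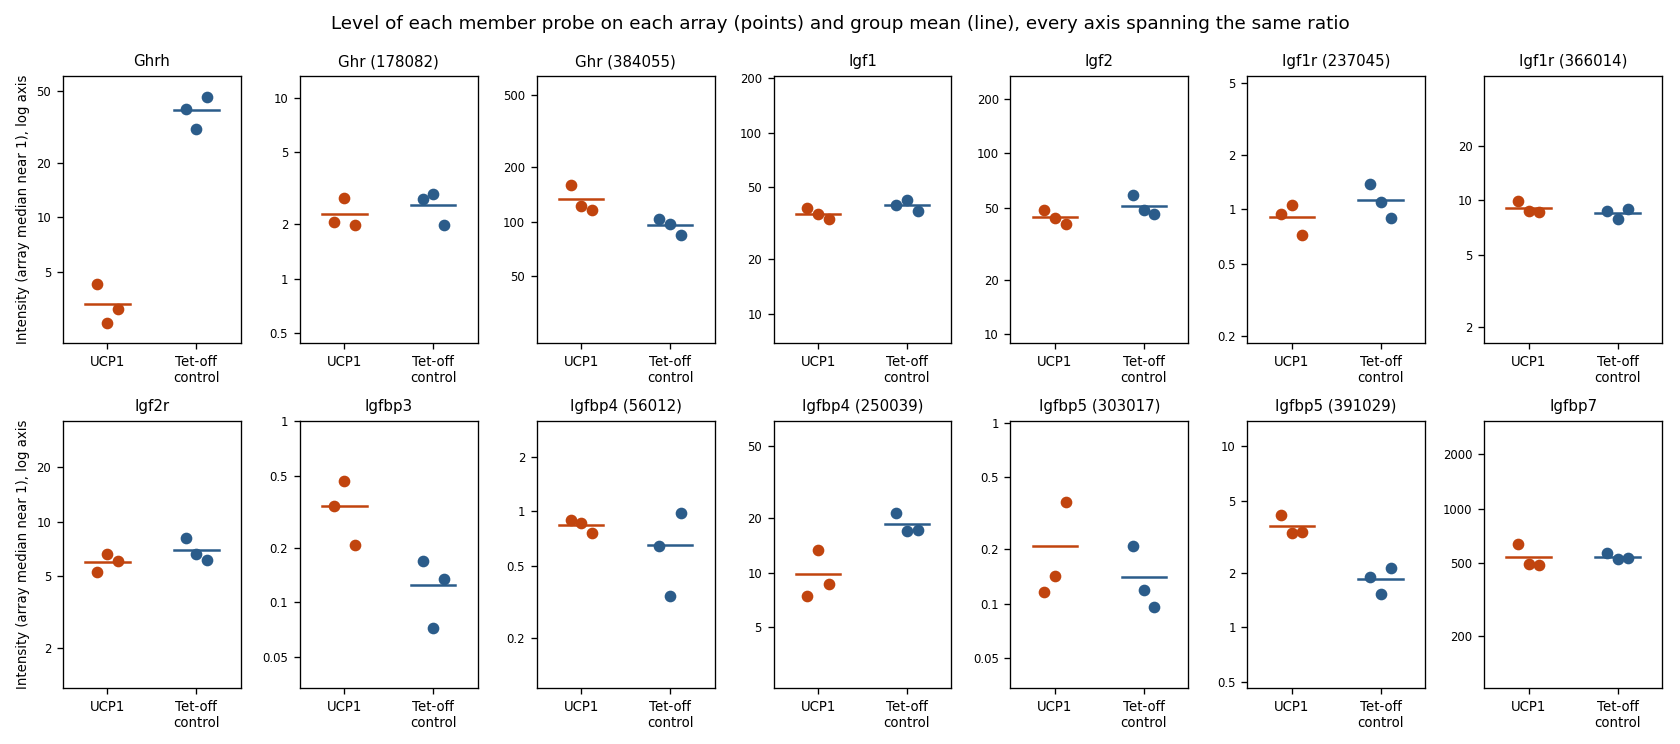
Intensity of the 14 member probes on each array, on log axes that each span the same ratio, with UCP1 arrays (orange) left of Tet-off control arrays (blue); points are arrays 1 to 3 from left to right and lines are group means. Ghrh readings are 2.61 to 4.25 on UCP1 arrays against 30.7 to 46.4 on control arrays, while Igf1, Igf2, Igf1r and Igf2r overlap between groups.

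The genes whose profile over the 6 arrays lay closest to that of Ghrh were Smim41, Mb, Tmem229b, Mid2 and Ibsp. Likeness was the root mean square distance between log2 profiles, each centred on its own mean, over the 12040 probes with 1 gene symbol, of no member, that were at or above the median level and had a value on all 6 arrays. The distance was 0.48 for Smim41, 0.74 for myoglobin (Mb), the oxygen-binding protein of muscle, 0.76 for Tmem229b, 0.77 for the ubiquitin ligase Mid2 and 0.80 for the bone sialoprotein Ibsp. The Ghrh profile itself lay 1.80 from a flat line. Pearson's r with Ghrh over the 6 arrays was 0.985 for Smim41, 0.993 for Mb, 0.994 for Tmem229b, 0.995 for Mid2 and 0.945 for Ibsp. A high r alone sets few genes apart here, since 338 of those 12040 probes had an r of at least 0.95 and the points fall into the 2 groups. The distance depends mostly on the size of the fall, so it picks bright probes with a large fall. The log2 differences were -2.76 for Smim41, -2.10 for Mb, -2.07 for Tmem229b, -2.05 for Mid2 and -2.26 for Ibsp. The likeness therefore rests on the same Ghrh difference that chose the group. Smim41 read 0.773, 0.812 and 0.580 on UCP1 arrays against 5.27, 3.54 and 6.11 on control arrays, and like Ghrh it was lowest in controls on array 2 and highest on array 3. Mb had that order in controls too, with 14.8, 10.7 and 11.7 on UCP1 arrays against 52.6, 39.9 and 68.3 on control arrays. So did Tmem229b, at 15.3, 14.8 and 20.7 on control arrays. Mid2, at 4.48, 4.62 and 5.18, and Ibsp, at 2.72, 3.47 and 3.33, were lowest on control array 1 instead, and Ibsp was highest on array 2.

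**Figure D2:**
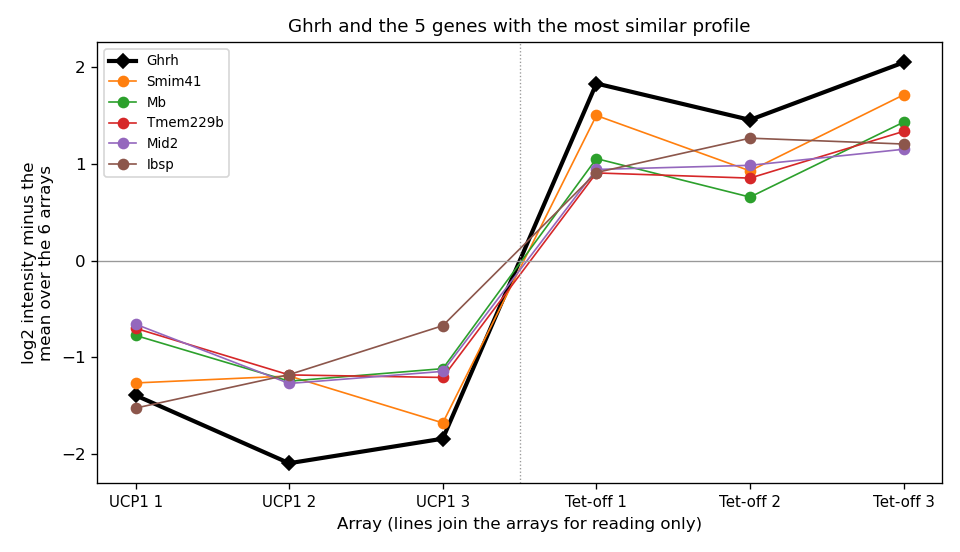
Log2 intensity on each array, minus the mean over the 6 arrays, for Ghrh (black diamonds) and the 5 genes with the smallest distance to it (coloured points), UCP1 arrays left of control arrays. The 6 profiles lie below 0 on the UCP1 arrays and above 0 on the control arrays, and Ghrh spans the widest range.

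Of the 13 probes of the other 9 genes, 1 rose and 1 fell past the threshold, next to 0.800% and 2.03% of all probes. The 2 genes were both binding proteins, Igfbp5 (higher) and Igfbp4 (lower). Of the 13 probes 4 did not overlap between groups, and 21.9% of all probes did the same. Of these probes 7 had a difference below 0 and 6 above 0, with a median of -0.020 beside -0.060 over all tested probes. The receptors and both IGF ligands did not pass.

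The growth hormone receptor gene Ghr gave different readings on its 2 probes. The bright probe (feature 384055) read 161, 122 and 116 on UCP1 arrays, against 104, 97.7 and 85.1 on control arrays. All UCP1 readings lay above all control readings, by 1.12 times at the nearest pair. The means were 133 ± 24.0 in UCP1 and 95.6 ± 9.68 in controls (SD, n = 3 each), a difference of 0.47 ± 0.166 (SE) on the log2 scale, which did not pass (limma, adjusted p = 0.163). This result depended on the scaling, since the difference was 0.76 after quantile normalization (adjusted p = 0.00417) and 0.69 after cyclic loess (adjusted p = 0.00872), with adjusted p between 0.00417 and 0.442 over all alternatives. The dimmer probe (feature 178082) read 2.06, 2.80 and 1.98 on UCP1 arrays and 2.76, 2.91 and 1.99 on control arrays, and these groups overlapped, with a difference of -0.16 and a 95% interval from -0.57 to 0.24.

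Igf1, the growth factor that growth hormone induces, read 38.5, 35.8 and 33.2 on UCP1 arrays and 39.8, 42.5 and 37.0 on control arrays. The groups overlapped, since UCP1 array 1 read above control array 3. The UCP1 to control ratio was 0.900, with a 95% interval from 0.751 to 1.08 (limma, adjusted p = 0.578), and the sign of this small difference turned under quantile normalization and cyclic loess. Igf2, the fetal growth factor that binds the same receptor, read 48.9, 44.1 and 40.4 on UCP1 arrays and 58.8, 48.4 and 46.1 on control arrays. Its groups also overlapped, and the ratio was 0.873, with an interval from 0.709 to 1.07 (adjusted p = 0.523).

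The receptors of the IGFs did not pass, and their groups overlapped on every probe. Igf1r, the tyrosine kinase that carries the signal of both ligands, read 9.97, 8.71 and 8.61 on UCP1 arrays and 8.76, 7.91 and 8.91 on control arrays with its brighter probe (feature 366014). Its ratio was 1.07, with a 95% interval from 0.898 to 1.27 (limma, adjusted p = 0.734). The other Igf1r probe (feature 237045), near the array median, read 0.943, 1.06 and 0.716 on UCP1 arrays and 1.38, 1.10 and 0.895 on control arrays, a ratio of 0.808 with an interval from 0.579 to 1.13. Igf2r, the clearance receptor of IGF2 that also sorts lysosomal enzymes, read 5.30, 6.67 and 6.08 on UCP1 arrays and 8.16, 6.60 and 6.16 on control arrays. Its groups overlapped, with a ratio of 0.865 and an interval from 0.702 to 1.07 (adjusted p = 0.495).

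Igfbp4, a binding protein that mostly restrains IGF action, fell in UCP1. Its bright probe (feature 250039, annotated with a RefSeq transcript) read 7.44, 13.4 and 8.68 on UCP1 arrays, against 21.3, 16.9 and 17.3 on control arrays. All 3 UCP1 readings lay below all controls, and UCP1 array 2 came nearest to them. The means were 9.82 ± 3.12 in UCP1 and 18.5 ± 2.42 in controls (SD, n = 3 each), and the gene fell by 0.95 ± 0.189 (SE) in log2 intensity, a 1.94-fold difference (limma, adjusted p = 0.0231). The call was lost after quantile normalization (adjusted p = 0.0792), after cyclic loess (0.0842), without the intensity trend (0.277), without control array 1 (0.0908) and without UCP1 array 3 (0.154), over a range of 0.000957 to 0.277, and the difference stayed between -1.20 and -0.78. The other probe (feature 56012) was below the array median and read 0.894, 0.856 and 0.760 on UCP1 arrays and 0.644, 0.340 and 0.970 on control arrays, with a difference of 0.48 and an interval from -0.23 to 1.20.

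Igfbp5, a binding protein that also binds the extracellular matrix and can strengthen or weaken IGF action, rose in UCP1. The probe that passed (feature 391029) read 4.15, 3.34 and 3.36 on UCP1 arrays, against 1.90, 1.53 and 2.14 on control arrays. It is annotated with a GenBank record other than a RefSeq transcript, and the probe annotated with a RefSeq transcript is the second one (feature 303017). The groups did not overlap, and the lowest UCP1 reading was 1.56 times the highest control. The means were 3.62 ± 0.462 in UCP1 and 1.86 ± 0.306 in controls (SD, n = 3 each), a rise of 0.97 ± 0.158 (SE) on the log2 scale or 1.96-fold (limma, adjusted p = 0.00947). The rise stayed between 0.84 and 1.08 over the 13 alternatives, of which 11 kept the call; it was lost without UCP1 array 3 (adjusted p = 0.0687) and without the intensity trend (0.221), over a range of 0.00137 to 0.221. The second Igfbp5 probe (feature 303017) was dim, at 0.115, 0.143 and 0.363 on UCP1 arrays and 0.208, 0.120 and 0.0955 on control arrays, above no more than 29.8% of the probes of any array, and its interval ran from -1.09 to 1.98.

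The start regions of Igfbp4 and Igfbp5 are shown because these 2 genes passed in opposite directions. The windows are chr11:99040994-99041293 on the plus strand for Igfbp4 and chr1:72874816-72875115 on the minus strand for Igfbp5 (RefSeq, GRCm38.p6), with a TATA box in capitals.
Igfbp4: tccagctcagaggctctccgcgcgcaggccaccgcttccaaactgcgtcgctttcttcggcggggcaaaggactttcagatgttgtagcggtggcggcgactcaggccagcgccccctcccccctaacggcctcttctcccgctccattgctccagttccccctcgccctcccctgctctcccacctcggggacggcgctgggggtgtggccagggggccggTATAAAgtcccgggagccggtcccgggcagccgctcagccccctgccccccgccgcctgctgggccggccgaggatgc
Igfbp5: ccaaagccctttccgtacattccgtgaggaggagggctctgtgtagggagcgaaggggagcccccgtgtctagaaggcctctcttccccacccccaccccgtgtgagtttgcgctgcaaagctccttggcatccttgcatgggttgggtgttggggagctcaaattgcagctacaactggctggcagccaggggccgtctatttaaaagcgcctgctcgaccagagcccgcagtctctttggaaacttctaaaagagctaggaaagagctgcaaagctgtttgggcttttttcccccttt
Of the 5 motifs searched, the Igfbp4 window held the TATA letters at position -28 and the Igfbp5 window held none.

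Igfbp3, the main carrier of IGFs in blood, was near the dim end of the scale. It read 0.342, 0.468 and 0.209 on UCP1 arrays, against 0.169, 0.0721 and 0.136 on control arrays, above 18.0% to 35.4% of the probes on UCP1 arrays and 1.99% to 9.33% on control arrays. All UCP1 readings were higher, yet the difference of 1.45 ± 0.575 (SE) on the log2 scale did not pass (limma, adjusted p = 0.217), and it was 0.77 with an offset added before log2. Igfbp7, a secreted protein of the same wider family that binds IGFs only weakly, was one of the brightest probes of the array. It read 640, 499 and 488 on UCP1 arrays and 569, 529 and 539 on control arrays, and the groups overlapped. Its ratio was 0.986, with a 95% interval from 0.711 to 1.37, and its sign turned with the scaling, to 0.35 after quantile normalization and 0.29 after cyclic loess on the log2 scale.

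**Figure D3:**
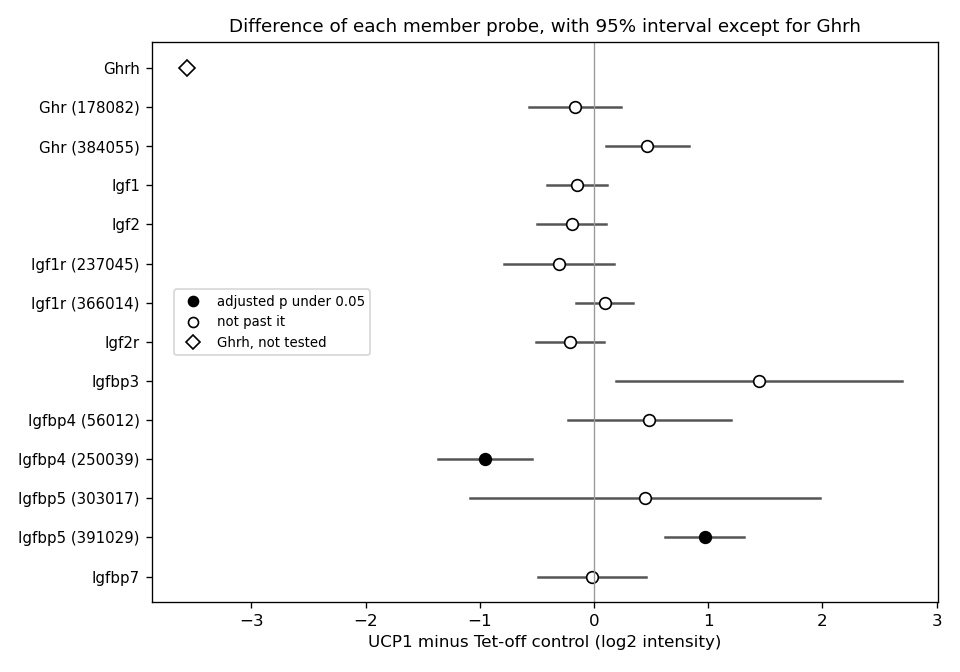
Difference between UCP1 and Tet-off control in log2 intensity for each member probe, with the 95% interval from limma as a bar; filled points passed an adjusted p of 0.05, and the Ghrh diamond has no interval because it was not tested. Igfbp4 (feature 250039) at -0.95 and Igfbp5 (feature 391029) at 0.97 are the 2 filled points, and the widest intervals are those of the dim Igfbp3 and Igfbp5 (303017) probes.

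Within a group the order of the arrays differed between members. Among the UCP1 arrays, array 1 was the highest at 8 of the 14 probes and array 3 the lowest at 9, while Igfbp4 (feature 250039) and Igf2r were lowest on array 1. Among the control arrays, array 1 was the highest at 8 of the 14 probes and the lowest at 0. Of 5 markers of preadipocytes and fibroblasts 2, Pdgfra and Thy1, passed the threshold and rose in UCP1, and none fell. Among all genes 1.13% rose and 2.92% fell. Of the 6 measured adipocyte markers 0 passed in either direction. The collagen gene Col1a1 read 8.57, 20.7 and 11.1 on UCP1 arrays and 20.6, 11.3 and 13.2 on control arrays. The groups overlapped for Col1a1, and also for the markers Col1a2 and Dlk1. The summed level of that list ran from 183 to 244 on UCP1 arrays and from 156 to 197 on control arrays, ranges that overlap. The part of these cells in the Igfbp4 and Igfbp5 differences was not tested.

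**Figure D4:**
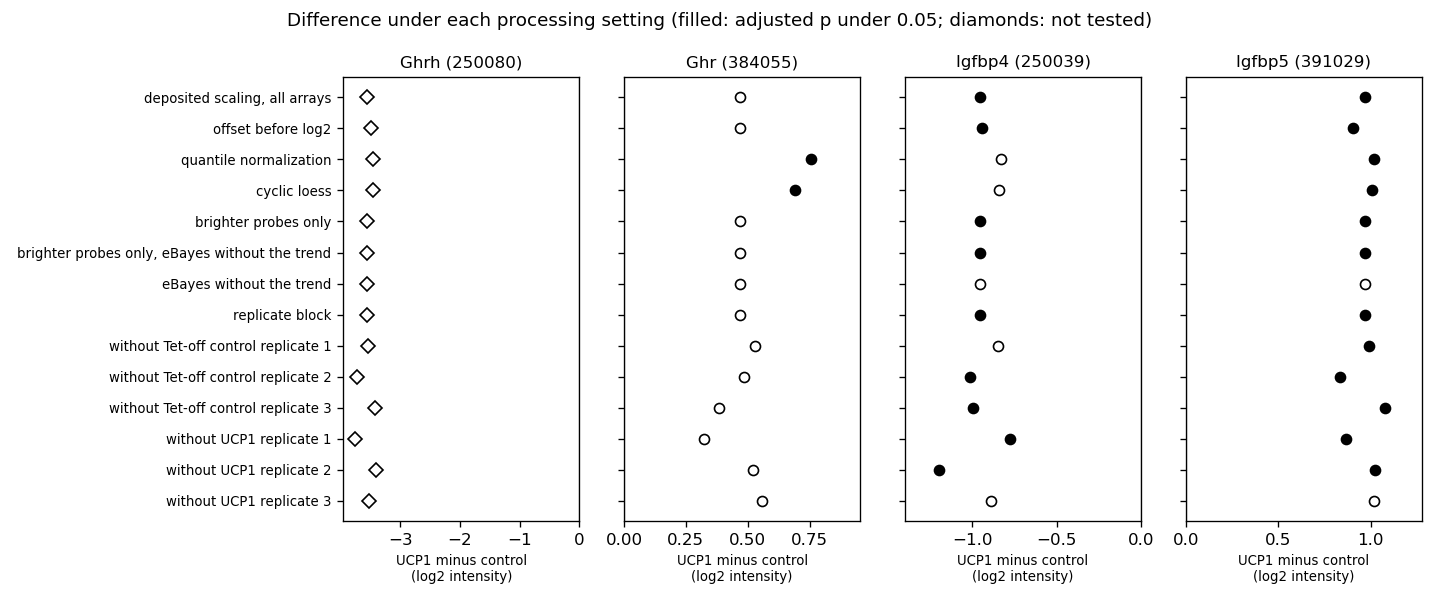
Difference between UCP1 and Tet-off control in log2 intensity for Ghrh (feature 250080), Ghr (384055), Igfbp4 (250039) and Igfbp5 (391029) under the deposited scaling (top row) and 13 other settings (lower rows); filled points passed an adjusted p of 0.05, and Ghrh diamonds were not tested. None of these 4 probes changes sign, and under the 2 other scalings Ghr passes and Igfbp4 does not.

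A list of 63 further genes of the pathway was taken as the wider axis, of which 52 had a tested probe, with the probe of highest mean level standing for each gene. Of these 2 rose and 2 fell, next to 1.13% and 2.92% of 18014 genes measured the same way. The median log2 difference of the list was -0.075, beside -0.083 over all genes. The 4 genes were Pappa and Grb14, which rose, and Pdpk1 and Socs2, which fell. After quantile normalization 4 rose and 1 fell. The list, like that of the members, was drawn up with earlier results of these data known.

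None of the 9 measured genes of hypothalamic and pituitary hormones and their receptors passed. The receptor of the Ghrh peptide, Ghrhr, read 0.252, 0.226 and 0.177 on UCP1 arrays and 0.282, 0.292 and 0.276 on control arrays, well under the array median. The gene of this group with the smallest p was Sstr4, a somatostatin receptor, at -0.33 ± 0.202 (SE). Only 1 of the 9, the somatostatin receptor Sstr2, had a mean level at or above the median probe.

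Downstream of the growth hormone receptor, 1 of 11 genes fell and 0 rose, beside 2.92% and 1.13% of all genes. Socs2, an inhibitor of growth hormone signalling that Stat5 induces, read 6.86, 7.26 and 6.92 on UCP1 arrays, against 11.2, 10.4 and 8.89 on control arrays. All UCP1 readings were lower, and the gene fell by 0.53 ± 0.118 (SE) in log2 intensity (limma, adjusted p = 0.0374). The call held in 6 of 13 alternatives, with adjusted p from 0.0152 to 0.272. Its loss came with quantile normalization, cyclic loess, the limma fit without the trend and the replicate number as a block, and without control array 1, control array 2 or UCP1 array 3. Socs2 had another probe, near the array median, at 0.05. The transcription factor Stat5b was measured at -0.54 ± 0.155 (SE) and the kinase Jak2 at -0.14 ± 0.141 (SE), neither past the threshold, and Stat5a at -0.012. The median log2 difference of the 11 genes was -0.243, beside -0.083 over all genes. In the other roles of the list the median ran from -0.110 for partners of the Igf2 transcript to 0.564 for the IGF carriers. The median over all genes was 0.0088 after quantile normalization, and no role was tested as a set. The Stat5b readings of the groups did not overlap, and the gene passed in 2 of 13 alternatives, both on the brighter probes alone, with adjusted p from 0.0204 to 0.266. Stat5b was not alone in this role. Ptpn11, at -0.75 ± 0.226 (SE, limma, adjusted p = 0.102), and Stat3, at -0.24 ± 0.124 (SE, adjusted p = 0.355), were also lower with no overlap. Such a lack of overlap was seen at 21.9% of all probes. Socs1 went the other way, at 0.19, and overlapped.

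Among carriers and proteases of the binding proteins, Pappa rose. Pappa encodes pappalysin 1, a secreted protease that cuts IGFBP4 and IGFBP5. Its bright probe read 5.64, 5.63 and 5.21 on UCP1 arrays, against 3.93, 3.20 and 3.21 on control arrays. The groups did not overlap, and the gene rose by 0.68 ± 0.125 (SE) on the log2 scale, a 1.60-fold difference (limma, adjusted p = 0.0171). The call held in 9 of 13 alternatives, with adjusted p from 0.00435 to 0.232, and was lost without the trend, without control array 2 or 3 and without UCP1 array 3. Its 2 other probes were dim, at -0.72 and 0.15, and did not pass. None of the 5 carriers tested passed. Igfals, which holds IGFs in a large complex in blood, came nearest at 0.56 ± 0.137 (SE), with adjusted p = 0.0517. It passed in 6 of 13 alternatives, both other scalings among them, with adjusted p from 0.0192 to 0.296 and a difference between 0.43 and 0.68.

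Of 10 receptors and docking proteins shared with insulin 1 rose and 0 fell, beside 1.13% and 2.92% of all genes. Grb14, an adaptor that dampens insulin receptor signalling, read 13.3, 12.7 and 13.0 on UCP1 arrays, against 9.44, 8.28 and 9.74 on control arrays. It rose by 0.51 ± 0.110 (SE) in log2 intensity (limma, adjusted p = 0.0328), with the call held in 7 of 13 alternatives and adjusted p from 0.00845 to 0.259. The call was lost without the trend, with the replicate number as a block, without each control array in turn and without UCP1 array 3. The docking protein Irs1 was bright and overlapped between groups, at 223, 175 and 151 on UCP1 arrays and 167, 155 and 160 on control arrays.

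In the PI3-kinase and Akt arm 1 of 9 genes fell and 0 rose, beside 2.92% and 1.13% of all genes. Pdpk1, the kinase that activates Akt, read 1.26, 1.28 and 0.903 on UCP1 arrays, against 3.58, 3.02 and 2.40 on control arrays. The groups lay apart by 1.88 times at the nearest pair, and the gene fell by 1.39 ± 0.191 (SE) in log2 intensity (limma, adjusted p = 0.00393). The call was lost without the intensity trend (adjusted p = 0.209) and held in the 12 other alternatives, over a range of 0.000282 to 0.209. Akt1 itself was measured at 0.021 ± 0.131 (SE). Of 4 measured partners of the Igf2 transcript none passed. Igf2bp3, an RNA-binding protein that binds Igf2 messenger RNA, had the smallest p of them, at -0.44 ± 0.124 (SE, adjusted p = 0.081), and passed in 2 of 13 alternatives (adjusted p from 0.0375 to 0.316).

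**Figure D5:**
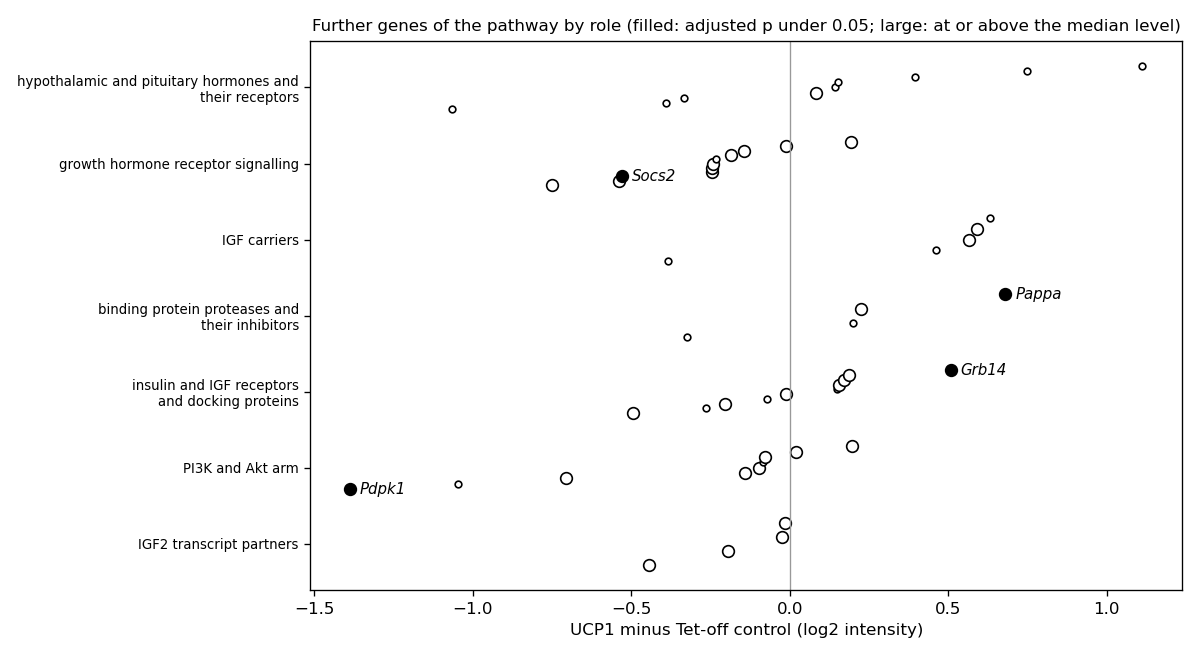
Difference between UCP1 and Tet-off control in log2 intensity for the 52 further pathway genes, by role, each point 1 gene; filled points passed an adjusted p of 0.05 and large points had a mean level at or above the median probe. The filled points are Pappa at 0.68 and Grb14 at 0.51, which rose, and Socs2 at -0.53 and Pdpk1 at -1.39, which fell.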

How the data were processed

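Biotin-labelled total RNA of 6 samples was hybridised to CodeLink mouse whole genome arrays, per the labels' protocols and the series' design text. The deposited table holds linear intensities, which the authors had scaled to an array median near 1 by a step that, like the scanner software and any background correction, the labels do not name. The code -9999, at 116 to 125 probes per array, was treated as missing. Values at or below 0 (80 to 159 per array) took their array's smallest positive value before log2. No detection mark was used here, and the number of arrays limits the precision. Groups came from the source field of the labels, with replicate numbers in accession order, which is also the order of the numbers in the titles. The titles of the UCP1 arrays end in UCP1, UCP2 and UCP3, while the source field of each gives uncoupling protein 1.

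Probes were named by the platform annotation where it gives 1 symbol (21615 probes; 681 have several and 13931 none). Gene identifiers of 21487 matched RefSeq names of GRCm38.p6, with 0 changed. The labels name no build for the array, so that assembly served for names, gene order and promoter windows only.

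Probes with a value on at least 2 arrays per group entered limma 3.58.1 under R 4.3.3 (lmFit, eBayes with an intensity trend, two-sided), with Benjamini-Hochberg adjustment over 36116 probes and a threshold of 0.05. Intervals are 95% intervals from that fit, and a fold change is the ratio of geometric means. The functions were tested on simulated arrays with known changes and independent noise drawn from the variances of the fit. That checks the code, and cannot show how far the real arrays follow the model. The members, the gene lists and the naming rule were chosen with earlier results of these data known. The text names every member probe and, from the pathway list, each called gene and, for a role without one, the gene with the smallest p; it also names the 5 genes most like Ghrh and the 3 nearest measured genes on each side of Ghrh and Igf2. Ghrhr, Sstr2, Stat5a, Stat5b, Stat3, Ptpn11, Socs1, Jak2, Irs1 and Akt1 were named after their values were seen. Alternatives were an offset of 0.171 (the 10th percentile of positive intensities), quantile normalization, cyclic loess, the brighter probes alone, eBayes without the trend, the replicate number as a block, leaving out each array in turn and, added after seeing the data, the brighter probes without the trend. The deviations of arrays with the same number correlated at -0.24, -0.0069 and 0.10. These values show no sign that the numbers pair the arrays, but cannot exclude it.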

Additional observations from a re-analysis of the deposited data

How the results depend on the processing

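The count of probes past the threshold was 1021, and 2239 on the brighter probes alone, 2135 on these without the intensity trend, and 159 to 1896 when 1 array was left out (359, 392 and 617 without control array 1, 2 and 3, 1892, 1896 and 159 without UCP1 array 1, 2 and 3). With limma without the trend on all probes it was 0, where 4951 probes had an unadjusted p under 0.05, and then the counts of member genes and of pathway genes were also 0, with 4 member probes other than Ghrh at an unadjusted p under 0.05. Calls split into 567 higher and 446 lower with quantile normalization and 517 and 460 with cyclic loess, against 289 and 732 in the deposited scaling. Of the 9 member genes other than Ghrh, which was not tested, 2 passed the threshold, and this count was 0 to 2 with 1 array left out: 1 without control array 1 and 0 without UCP1 array 3. Both scalings gave 2 as well, Ghr and Igfbp5. The 4 pathway genes became 8 on the brighter probes, 7 on these without the trend, and 1 to 7 with 1 array left out: 2, 1 and 2 without control array 1, 2 and 3, and 7 and 1 without UCP1 array 2 and 3.

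With the replicate number as a block, a number that showed no sign of pairing, 776 probes, 2 member genes and 2 pathway genes (Pappa and Pdpk1) passed. The difference of Ghrh stayed between -3.75 and -3.40 in all 13 alternatives. Signs turned for Igf1 (0.013 with quantile normalization, 0.0134 with cyclic loess), for Igfbp7 (0.35 and 0.29 with these, -0.15 to 0.05 with 1 array left out, above 0 without control array 1, at 0.0103, UCP1 array 2, at 0.0345, and UCP1 array 3, at 0.0505) and for the dim Igfbp5 probe (-0.054 without UCP1 array 3, with 0.77 as the highest value with 1 array left out), none past the threshold. The cause of these changes was not tested.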

Other observations

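Of the 6 measured genes nearest to Ghrh in the RefSeq gene order, 1 passed the threshold, beside 1.13% higher and 2.92% lower among all genes. Rpn2, a subunit of the enzyme that attaches glycans to proteins in the endoplasmic reticulum, is the next gene on one side. It read 27.9, 33.5 and 25.8 on UCP1 arrays, against 50.4, 44.8 and 40.4 on control arrays, and fell by 0.64 ± 0.138 (SE) in log2 intensity (limma, adjusted p = 0.0326). The call held in 6 of 13 alternatives, with adjusted p from 0.00914 to 0.267 and a difference between -0.75 and -0.47. It was lost with quantile normalization (adjusted p = 0.104), cyclic loess (0.086) and the limma fit without the trend. Leaving out any control array or UCP1 array 3 also lost it. Beyond it lay Mroh8, which was dim and measured at 1.58 ± 0.466 (SE), and the pocket protein gene Rbl1, also dim, at -0.37. On the other side Manbal, with 9.81, 7.85 and 7.75 on UCP1 arrays and 9.01, 9.14 and 10.0 on control arrays, was measured at -0.16, the tyrosine kinase Src at 0.17 and Blcap at -0.71, none past the threshold.

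Around Igf2, the imprinted noncoding RNA gene H19 read 5.40, 3.33 and 4.01 on UCP1 arrays and 5.05, 4.46 and 4.81 on control arrays, a difference of -0.20 ± 0.164 (SE). The dim Nctc1 was measured at -0.15 and the mitochondrial ribosomal protein gene Mrpl23 at -0.40. On the other side Igf2os, which was dim, was measured at 0.27, the tyrosine hydroxylase gene Th at 0.068 and the transcription factor gene Ascl2 at -0.07. None of these 6 passed the threshold (limma).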
